A study of Mus musculus with 4 samples.

Results

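A set of 10 genes that are widely read as reporters of cytoskeletal tension were followed in cultured mouse hair follicle stem cells (HFSCs), namely Ctgf, Cyr61, Ankrd1, Amotl2, Acta2, Tagln, Cnn2, Tpm1, Tpm2 and Myl9. They were chosen by gene symbol, as contractile genes and genes responsive to YAP or SRF, and all 10 were found among the 24346 gene symbols that each library listed. Of the 10 genes, 7 passed the filter on low values (2 or more libraries with an FPKM of 1 or above), as did 11018 of all genes, and Acta2, Tagln and Myl9 did not. FPKM is the number of fragments assigned to a gene, scaled by its length and by the total of mapped fragments.

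The cells were sorted from dorsal skin of C3H/HeN mice as CD49f+ CD34+ epithelial cells, and were grown in the serum-free medium M-CnT with a passage each week. HFSCs after 10 passages (10p-HFSCs) were compared with HFSCs after 48 passages (48p-HFSCs), with 2 libraries in each group and no agent or genetic change in either. Passage number therefore came with time in culture, and no source used here says whether the libraries of a group came from separate cultures, so that p-values measure the spread between these libraries, which may be technical. Krt5 was at an FPKM of 1473 or more in every library, while Cd34 was at 0.234 or less and Lhx2, another gene that defines these stem cells, at 0.0241 or less. Other markers of these cells were expressed, Sox9 at 45.6 and 44.2 in 10p-HFSCs against 20.2 and 8.31 in 48p-HFSCs, and Krt15 between 18.8 and 424.8 with overlapping groups. The summed FPKM was 581516 and 719012 in the 10p libraries and 666018 and 1414953 in the 48p libraries. Relative depth was estimated from the most common ratio of low FPKM values to those of 10p-HFSCs replicate 1. It was lowest in 48p-HFSCs replicate 2, at 46.7%, from a ratio that 167 of 927 compared genes held. In that library short transcripts were high relative to 48p-HFSCs replicate 1. The median log2 difference was 0.87 for transcripts under 1000 bases and -0.25 for those of 4000 bases or more. For replicate 2 against replicate 1 of 10p-HFSCs the medians were smaller but of the same sign, at 0.38 and -0.19. Between the groups, 48p-HFSCs minus 10p-HFSCs, these medians were 0.70 and -0.29. Absolute depth is unknown from FPKM values, and no counting interval is given.

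YAP and its paralog TAZ are co-activators that the Hippo kinases keep out of the nucleus and that switch on target genes together with TEAD factors. SRF binds DNA motifs called CArG boxes, and its cofactors MRTF-A and MRTF-B are held back by monomeric actin and freed when actin polymerises. In skin, YAP is known for promoting the growth of basal epidermal cells, and genes of both pathways respond to cell spreading and to the stiffness of the surface on which cells grow.

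Before the values, the bases before each RefSeq start are shown where they hold a copy of a TEAD or SRF motif. The 250 bases before the start were searched on both strands in the RefSeq promoters of GRCm38.p6 for GGAATG, the core of the TEAD motif, and for the CArG box. A promoter was at hand for 8 of the 10 genes, the others being Ctgf and Tagln. The TEAD core was found in 5 of the 8 (Cyr61, Ankrd1, Amotl2, Acta2 and Tpm1), against 12.6% of all 32851 promoters. A CArG box was found in 2 of the 8 (Cnn2 and Myl9), against 1.47% of all promoters, and Tpm2 had neither within this window. No promoter of the 8 held both motifs in the exact forms searched. The CArG box was searched as CCWWWWWWGG, W being A or T, and no mismatch was allowed for either motif. Sites that differ from these forms by a base would have been missed. A match is a stretch of letters and no evidence of binding, and RefSeq starts need not be those used in these cells. The matches of Cyr61, Cnn2 and Myl9 lie before the first base of the gene in the GENCODE annotation, whereas those of Ankrd1, Amotl2, Acta2 and Tpm1 lie inside the annotated gene.

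The windows of 30 bases around each match are shown because they let the genes be compared letter by letter, with the match in capitals and the strand that of the gene. CATTCC is the TEAD core read on the other strand.
Cyr61, chr3:145650071-145650100, minus strand: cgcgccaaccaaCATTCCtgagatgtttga
Ankrd1 distal, chr19:36120037-36120066, minus strand: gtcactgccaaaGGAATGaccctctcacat
Ankrd1 proximal, chr19:36119950-36119979, minus strand: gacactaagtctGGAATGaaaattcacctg
Amotl2, chr9:102717727-102717756, plus strand: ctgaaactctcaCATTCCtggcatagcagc
Acta2, chr19:34255502-34255531, minus strand: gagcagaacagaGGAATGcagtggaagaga
Tpm1, chr9:67049252-67049281, minus strand: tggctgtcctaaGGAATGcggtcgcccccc
Cnn2, chr10:79988534-79988563, plus strand: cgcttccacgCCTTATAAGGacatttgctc
Myl9, chr2:156775293-156775322, plus strand: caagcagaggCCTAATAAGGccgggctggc

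Cyr61 and Cnn2 had the largest increases on the log2(FPKM + 1) scale among the tested genes of their classes, YAP targets and contractile genes, and the stretch from 250 to 31 bases before their start is given in full, with the same motifs in capitals.
Cyr61, chr3:145650016-145650235, minus strand: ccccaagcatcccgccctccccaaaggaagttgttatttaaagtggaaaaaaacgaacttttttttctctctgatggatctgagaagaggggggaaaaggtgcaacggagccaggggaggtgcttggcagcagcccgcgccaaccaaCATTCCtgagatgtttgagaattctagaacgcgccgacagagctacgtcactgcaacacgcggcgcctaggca
Cnn2, chr10:79988350-79988569, plus strand: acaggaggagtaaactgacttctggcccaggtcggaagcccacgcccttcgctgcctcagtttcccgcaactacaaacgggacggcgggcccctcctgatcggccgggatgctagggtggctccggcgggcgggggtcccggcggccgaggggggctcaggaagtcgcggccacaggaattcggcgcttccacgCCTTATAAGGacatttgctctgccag

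Among the 7 tested genes, 3 were called higher in 48p-HFSCs (Cyr61, Cnn2 and Tpm1) and 1 was called lower (Ctgf). A gene was called at a limma adjusted p under 0.05 over all 11018 genes together with a difference of at least 1 on the log2(FPKM + 1) scale, a scale that understates changes of low genes. Of all genes tested, 10.8% were called higher and 9.15% lower, so that calls in either direction were common. Both 48p libraries were above both 10p libraries for 5 of the 7 genes (Cyr61, Amotl2, Cnn2, Tpm1 and Tpm2), against 31.7% of all genes tested, and below them for Ctgf alone, against 34.3%. The median log2 difference of all genes was -0.034. A correction for transcript length and GC content left the 4 calls in place. With 2 libraries against 2, the smallest two-sided p that an exact permutation test can reach is 0.333, so that no single gene could pass such a test.

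**Figure D1:**
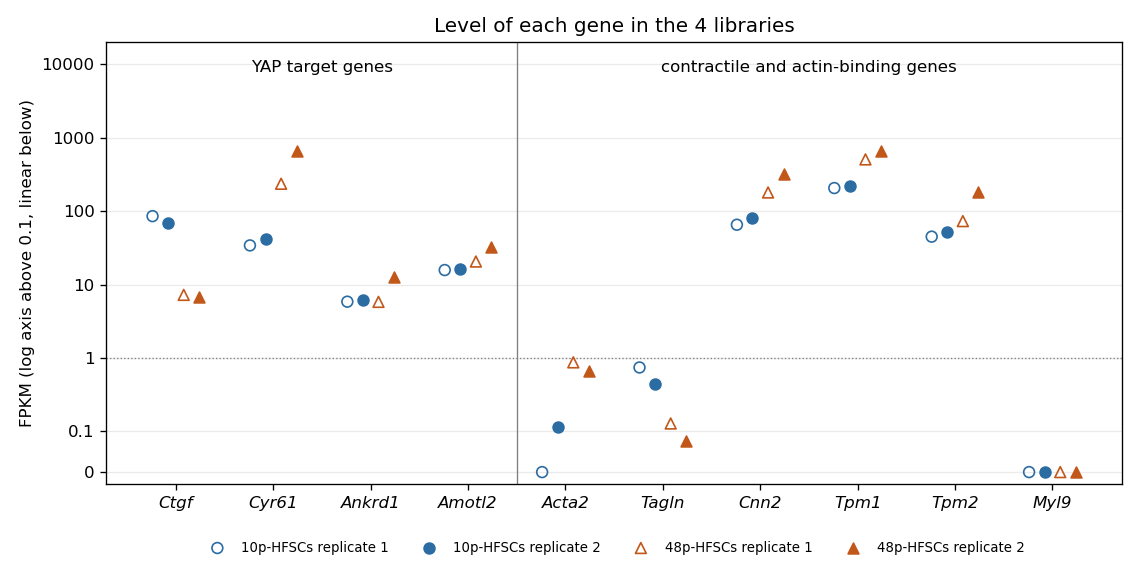
FPKM of the 10 genes in each library (log axis above 0.1, linear below), with circles for 10p-HFSCs, triangles for 48p-HFSCs, open symbols for replicate 1 and filled symbols for replicate 2; the dotted line marks an FPKM of 1. Ctgf is the one gene above this line whose 48p values lie under its 10p values, Cyr61 spreads most between the 48p libraries (236.8 and 672.3), and Acta2, Tagln and Myl9 stay under the line in every library.

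Transcripts of the 2 secreted matricellular proteins of the set, both YAP targets, moved in opposite directions. Ctgf, also named Ccn2, encodes connective tissue growth factor, and the gene lies at chr10:24595442-24598683 of GRCm38 on the plus strand. Its FPKM was 85.7 and 69.4 in the 10p libraries and 7.24 and 6.71 in the 48p libraries, with all 48p values far below the 10p values and replicates close together. The group means were 77.6 ± 11.5 (SD, n = 2) and 6.98 ± 0.374 (SD, n = 2), an 11.1-fold lower mean in 48p-HFSCs. On the log2 scale Ctgf fell by 3.29 (standard error 0.253, 95% interval -3.92 to -2.67, limma adjusted p = 0.00121). Gm15270 overlaps Ctgf on the other strand, and the strand setting of the authors' quantification is not given in the sources used here.

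Cyr61, also named Ccn1, encodes a relative of Ctgf, a secreted ligand of integrins, and lies at chr3:145646976-145649981 on the minus strand. Its FPKM was 34.2 and 41.5 in the 10p pair and 236.8 and 672.3 in the 48p pair. Both 48p values were well above the 10p values, although the 48p replicates differed by 2.84-fold. The group means were 37.9 ± 5.17 (SD, n = 2) and 454.6 ± 307.9 (SD, n = 2), which is 12-fold higher in 48p-HFSCs, with a log2 difference of 3.37 (standard error 0.522, 95% interval 2.09 to 4.66, limma adjusted p = 0.00969). Without 48p-HFSCs replicate 2 the difference was 2.62 (limma adjusted p = 0.00993), and without 48p-HFSCs replicate 1 it was 4.12 (limma adjusted p = 0.00522).

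As a result, the order of these ligands turned over. The ratio of Cyr61 to Ctgf was 0.399 and 0.598 in the 10p libraries, and 32.7 and 100.2 in the 48p libraries. This ratio is taken within each library and is free of any scaling between libraries. The calls of both genes also held under rescaling of each library to TPM, with log2 differences of -3.87 and 2.80, but both calls were lost when either 10p library was left out, with limma adjusted p of 0.0676 and 0.0579 for Ctgf and of 0.204 and 0.161 for Cyr61. In those fits the spread came from the 48p pair alone.

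The other 4 genes of the CCN family were low. Nov and Wisp3 were listed at 0 in all 4 libraries, and Wisp2 was at 0.263 or less. Wisp1 was at 0.0102 and 0.0425 at 10 passages and 2.33 and 0.152 at 48 passages, and did not pass the filter. Cyr61 therefore made up nearly all of the CCN level in 48p-HFSCs, where the summed FPKM of the family was 246.7 and 679.3.

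The 2 intracellular YAP targets were not called. Ankrd1, the cardiac ankyrin repeat protein, a nuclear and sarcomeric protein named for its role in heart muscle, lies at chr19:36111961-36120099 on the minus strand. Its FPKM was 5.85 and 6.12 in 10p-HFSCs against 5.81 and 12.7 in 48p-HFSCs, so that the groups overlapped and replicate 2 of 48p-HFSCs stood alone. The log2 difference was 0.47 (95% interval -0.50 to 1.43, limma adjusted p = 0.421), and its sign turned to -0.036 without 48p-HFSCs replicate 2. Under TPM, which lowered the median of all genes to -0.565, it was -0.06, or 0.51 above that median, against 0.50 above the median without the rescaling. Of its relatives in the MARP family, Ankrd2 was at 0.218 or less and Ankrd23 ranged from 0.777 to 2.61 with overlapping groups.

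Amotl2, angiomotin-like 2, a junctional scaffold that binds YAP and restrains it, lies at chr9:102716672-102733418 on the plus strand. Its FPKM was 15.8 and 16.2 in the 10p pair and 20.6 and 32.9 in the 48p pair. The 48p values were both higher, but the log2 difference of 0.67 (95% interval -0.08 to 1.42, limma adjusted p = 0.169) missed the threshold and an increase of more than 2-fold lies within its interval. Amotl1 was at 24.8 and 17.3 at 10 passages and 18.5 and 10.9 at 48 passages (log2 difference -0.51, not called), and Amot was listed at 0 in every library.

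**Figure D2:**
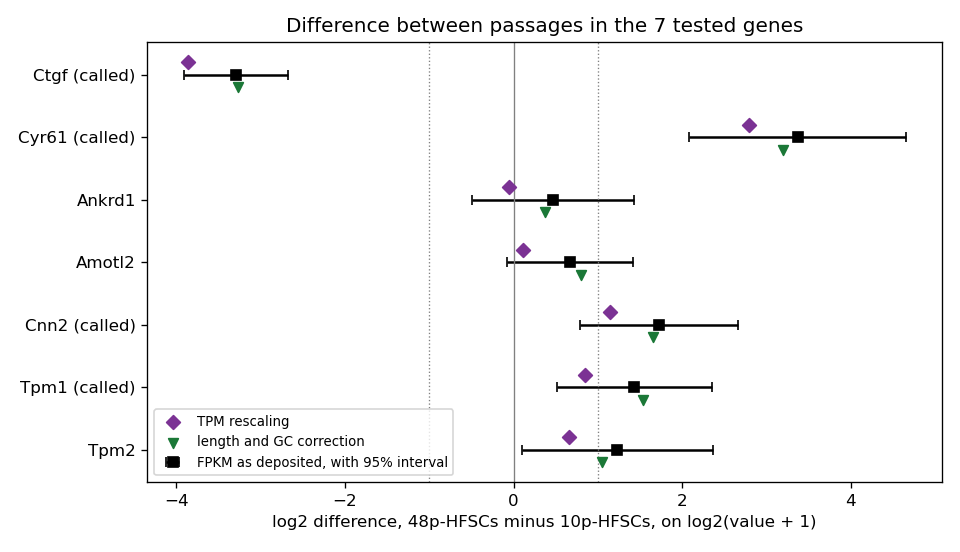
Log2 difference, 48p-HFSCs minus 10p-HFSCs, of the 7 tested genes. Squares with bars give the deposited FPKM with its 95% interval, diamonds the values rescaled to TPM and triangles the values corrected for transcript length and GC content; dotted lines mark a difference of 1 in either direction. The TPM values lie to the left of the others for each gene, as does the median of all genes under TPM (-0.565 against -0.034), and relative to these medians Tpm1 is at 1.42 under TPM and at 1.47 without it.

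Of the 6 contractile and actin-binding genes, 3 were well expressed. All 3 had both 48p values above both 10p values, as did 31.7% of all genes tested. Cnn2, calponin 2, an actin-binding protein found outside muscle as well, lies at chr10:79988584-79996062 on the plus strand. Its FPKM was 65.4 and 79.9 in 10p-HFSCs against 180.1 and 323.8 in 48p-HFSCs. Its mean of 72.7 ± 10.3 (SD, n = 2) rose to 252.0 ± 101.6 (SD, n = 2), a ratio of 3.47, with a log2 difference of 1.73 (standard error 0.379, 95% interval 0.79 to 2.66, limma adjusted p = 0.0282). The call held under TPM (log2 difference 1.15, limma adjusted p = 0.0259) and without either 48p library, and was lost without 10p-HFSCs replicate 1 or 2 (limma adjusted p = 0.366 and 0.262), without the filter on low values (0.188) and with genes at 0 in all libraries left out in its place (0.0584).

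Tpm1 and Tpm2 encode tropomyosins, rod-shaped proteins that lie along the actin filament and govern access of myosin to it. Tpm1, at chr9:67022590-67049406 on the minus strand, was at 206.9 and 219.3 in the 10p pair and 508.6 and 655.7 in the 48p pair, with replicates closer together than those of Cyr61 or Cnn2. Its mean of 213.1 ± 8.79 (SD, n = 2) rose to 582.1 ± 104 (SD, n = 2), a ratio of 2.73, and its log2 difference was 1.43 (standard error 0.375, 95% interval 0.51 to 2.36, limma adjusted p = 0.0464). This call stood at the edge of the threshold. It was lost under TPM (0.85, limma adjusted p = 0.0838), although relative to the median of all genes the difference was 1.42 under TPM and 1.47 without it. The call was also lost under each other filter on low values (limma adjusted p from 0.0521 to 0.107), under quantile normalization (0.93, under the limit on size), without 48p-HFSCs replicate 2 (1.25, limma adjusted p = 0.0511) and without 10p-HFSCs replicate 1 or 2 (limma adjusted p = 0.490 and 0.400).

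Tpm2, at chr4:43514711-43523765 on the minus strand, was at 45.0 and 52.8 at 10 passages and 73.3 and 182.9 at 48 passages. Both 48p values were higher, but they differed from each other by 2.50-fold, more than the lower of them differed from the 10p values. The log2 difference was 1.23 (95% interval 0.10 to 2.37, limma adjusted p = 0.112) and was not called, though without 48p-HFSCs replicate 1 it was 1.89 and called (limma adjusted p = 0.0135).

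Among the tropomyosins, Tpm1 took a larger part of the total after long-term culture. It made up 31.4% and 31.9% of the summed FPKM of Tpm1 to Tpm4 in the 10p libraries and 55.6% and 48.8% in the 48p libraries, a share that needs no scaling between libraries. Tpm2 made up 6.82% and 7.68% in 10p-HFSCs against 8.01% and 13.6% in 48p-HFSCs. Tpm3 was at 147.2 and 151.5 in 10p-HFSCs against 129.2 and 183.2 in 48p-HFSCs, and Tpm4 at 260.6 and 263.4 in the 10p pair and 204.3 and 322.8 in the 48p pair, so that the groups overlapped for both. The share of Cnn2 among the 3 calponins was likewise 21.1% and 26.5% at 10 passages and 34.9% and 39.9% at 48 passages, with Cnn3 at 244.4 and 221.4 at 10 passages and 335.8 and 487.3 at 48 passages (log2 difference 0.80, limma adjusted p = 0.186) and Cnn1 at 0.0823 or less.

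The 3 genes best known from smooth muscle were at or near the floor. Acta2, smooth muscle alpha actin, the usual marker of contractile myofibroblasts, lies at chr19:34241090-34255590 on the minus strand. It was listed at 0 and at 0.115 in 10p-HFSCs, and it was at 0.871 and 0.663 in 48p-HFSCs. Its 48p values were both higher, but all 4 were under an FPKM of 1, and no fold is given against a library at 0. Tagln, transgelin or SM22, an actin-bundling protein at chr9:45929619-45936058 on the minus strand, went the other way, with 0.742 and 0.444 in 10p-HFSCs against 0.128 and 0.0757 in 48p-HFSCs. Without the filter and with genes at 0 in every library left out, the log2 difference was 0.74 for Acta2 (limma adjusted p = 0.0258, under the limit on size) and -0.53 for Tagln (limma adjusted p = 0.063). Pcsk7 and Gm48529 overlap Tagln on the other strand.

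Myl9, the regulatory light chain of smooth muscle myosin, at chr2:156775420-156781658 on the plus strand, was listed at 0 in all 4 libraries. None of 13 subunits of RNA polymerase II and none of 13 Ndufa subunits of complex I was at 0 in any library, and of 19 proteasome subunits Psma8, Psmb11 and Psmb8, which are forms restricted to certain tissues or induced, were at 0 in at least 1. These genes cannot show whether the 0 of Myl9 is an absence of its RNA. The longest annotated transcript of each of the 10 genes, the one searched, shares no exact stretch as long as a read with a transcript of another gene in the annotation. The light chains that are not specific to smooth muscle were abundant, with Myl12a at 253.5 and 276.0 in the 10p pair and 320.5 and 598.4 in the 48p pair, and Myl12b at 251.2 and 241.1 at 10 passages and 294.4 and 386.7 at 48 passages. Neither was called.

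The cytoplasmic forms of the actins and transgelins were likewise far above the muscle forms in both groups. Actb was at 1069 and 1380 in 10p-HFSCs against 1098 and 3516 in 48p-HFSCs, and Actg1 at 1569 and 1792 in the 10p pair and 1955 and 4544 in the 48p pair, with neither called. Tagln2 was at 299.1 and 355.9 at 10 passages and 618.6 and 1658 at 48 passages. Its log2 difference of 1.63 had a limma adjusted p of 0.108 and was called under TPM (1.05, limma adjusted p = 0.0171), under quantile normalization (1.01, limma adjusted p = 0.0141) and without 48p-HFSCs replicate 1 (2.34, limma adjusted p = 0.0174). Of the muscle actins, Acta1 of skeletal muscle was called higher, from 0.0765 and 0.214 in 10p-HFSCs to 3.0 and 2.7 in 48p-HFSCs (limma adjusted p = 0.00562, and 0.0986 and 0.0769 without 10p-HFSCs replicate 1 or 2), Actc1 was listed at 0 in each library and Actg2 was at 0.659 or less. Tagln3 was at 0.284 or less. Acta1 passed the filter on low values through the 48p libraries alone.

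**Figure D3:**
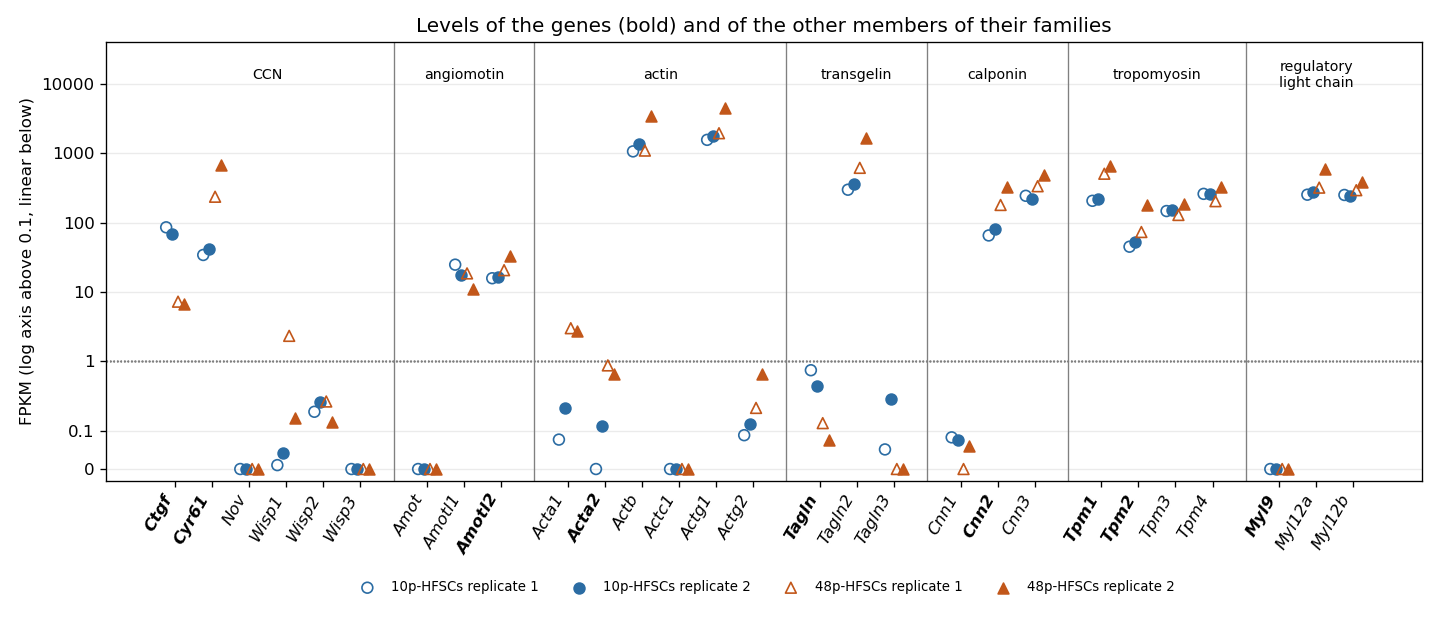
FPKM in each library of the genes (bold names) and of the other members of 7 of their families, on the axis and with the symbols of the plot of the 10 genes. Within the actin, transgelin, calponin and regulatory light chain families the cytoplasmic members (Actb, Actg1, Tagln2, Cnn2, Cnn3, Myl12a, Myl12b) lie above an FPKM of 60 in each library, while the smooth muscle members (Acta2, Actg2, Tagln, Cnn1, Myl9) lie below 1.

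Since Actb and Actg1 are themselves high in 48p-HFSCs replicate 2, the genes were also set against their sum within each library. Both actins are also in the list of other SRF-MRTF target genes, so that this measure takes out any change that the genes share with them. Cyr61 was at 1.30% and 1.31% of that sum in 10p-HFSCs against 7.76% and 8.34% in 48p-HFSCs, so that the replicates came close together on this measure. Ctgf was at 3.25% and 2.19% at 10 passages and 0.237% and 0.0833% at 48 passages. Cnn2 was at 2.48% and 2.52% in 10p-HFSCs, with 5.90% and 4.02% in 48p-HFSCs. Tpm1 was at 7.84% and 6.91% in the 10p pair and 16.7% and 8.14% in the 48p pair, so that its 48p replicates differed more than on the FPKM scale. For Ankrd1 the order was turned, with 0.222% and 0.193% in 10p-HFSCs against 0.190% and 0.157% in 48p-HFSCs, and for Amotl2 the groups overlapped. Tpm2 was at 1.71% and 1.66% at 10 passages and 2.40% and 2.27% at 48 passages, with replicates close together.

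Ranked by FPKM, which is scaled by length, Tpm1 led in 10p-HFSCs, followed by Ctgf and Cnn2, whose libraries overlapped, then by Tpm2, Cyr61, Amotl2 and Ankrd1. In 48p-HFSCs Tpm1 was above Cyr61 in replicate 1 and just below it in replicate 2, and in both replicates Cyr61 was above Cnn2, Cnn2 above Tpm2 and Tpm2 above Amotl2. Ankrd1 and Ctgf overlapped at the bottom, with Ctgf the higher in replicate 1 and Ankrd1 in replicate 2. Ctgf thus went from the upper end of the tested genes to their lower end.

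The upstream genes of the YAP arm were looked at in lists of Hippo kinases with their adaptors and of YAP, TAZ and their partners. All 14 genes of the Hippo list were tested, and 3 were called lower, against 9.15% of all genes, and 0 higher, against 10.8%. The median log2 difference was -0.85 against -0.034 for all genes, but -0.44 when 48p-HFSCs replicate 2 was left out. Under the correction for transcript length and GC content it was -0.65 against -0.014 for all genes, with 3 called lower. Of all 10954 genes fitted with that correction, 1090 were called lower. Both 48p values were below both 10p values for 10 of the 14 genes, against 34.3% of all genes. Lats2, a kinase of the same step as Lats1 and a YAP target itself, had higher values, with 1.92 and 1.76 in 10p-HFSCs against 3.08 and 9.57 in 48p-HFSCs (log2 difference 1.21, limma adjusted p = 0.124, not called). Lats1, a kinase that phosphorylates YAP, was at 21.8 and 14.5 in 10p-HFSCs against 4.28 and 1.73 in 48p-HFSCs (log2 difference -2.31, limma adjusted p = 0.0154). Nf2, which encodes merlin, an activator of the pathway at the membrane, was at 81.4 and 74.3 in the 10p pair and 35.5 and 15.6 in the 48p pair (log2 difference -1.68, limma adjusted p = 0.0382). Mob1b, a cofactor of the LATS kinases, was at 18.5 and 10.0 at 10 passages and 5.07 and 2.33 at 48 passages (log2 difference -1.71, limma adjusted p = 0.0429). The call of Mob1b was lost under TPM (-2.21, limma adjusted p = 0.0927) and without 48p-HFSCs replicate 2 (-1.27, limma adjusted p = 0.143), and all 3 calls were lost without 10p-HFSCs replicate 1 or 2 (limma adjusted p from 0.158 to 0.407).

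YAP and TAZ themselves were not called. Yap1 was at 39.3 and 36.3 in 10p-HFSCs against 55.8 and 38.0 in 48p-HFSCs (log2 difference 0.28, 95% interval -0.43 to 0.98), and Wwtr1, which encodes TAZ, was at 22.1 and 21.0 in the 10p pair and 15.8 and 12.4 in the 48p pair (-0.59, 95% interval -1.22 to 0.05). Of the TEAD factors, Tead2 was called lower, from 15.4 and 17.2 in 10p-HFSCs to 4.13 and 7.07 in 48p-HFSCs (log2 difference -1.42, limma adjusted p = 0.0302, but 0.0719 under TPM with a difference of -1.99, and 0.316 and 0.314 without 10p-HFSCs replicate 1 or 2). Tead1, Tead3 and Tead4 had log2 differences of 0.03, 0.18 and -0.51 and were not called. In all, 8 of the 10 genes of this list were tested, with 1 called lower and 0 higher, against 9.15% and 10.8% of all genes. The median of the list was 0.10 (-0.039 without 48p-HFSCs replicate 2). Transcript levels say nothing of the phosphorylation or location of the proteins, which were not measured here.

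In the SRF arm, Srf was at 20 and 20.6 at 10 passages and 13.1 and 20.6 at 48 passages (log2 difference -0.29, not called). Mkl1, which encodes MRTF-A, was at 14.4 and 15.5 in 10p-HFSCs against 14.8 and 8.21 in 48p-HFSCs, and Mkl2, which encodes MRTF-B, was at 10.8 and 8.58 in the 10p pair and 5.80 and 4.02 in the 48p pair. Neither was called (log2 differences -0.40 and -0.87). Myocd, the muscle cofactor of SRF, was listed at 0 in each library. Elk3, a partner of SRF from the ETS family, was the 1 gene called among the 6 tested of 7, against 9.15% of all genes called lower. It went from 59.5 and 59.0 in 10p-HFSCs to 29.1 and 19.5 in 48p-HFSCs (log2 difference -1.28, limma adjusted p = 0.0296). This call was lost without 10p-HFSCs replicate 1 or 2 (log2 differences -1.27 and -1.29). The median of the list was -0.47 (-0.31 without 48p-HFSCs replicate 2).

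Of 19 other YAP target genes, 15 were tested, 2 were called higher and 2 lower, shares near the 10.8% and 9.15% of all genes. Their median was 0.29, and 0.15 without 48p-HFSCs replicate 2. Gadd45a, a stress-induced gene of growth arrest, was at 9.09 and 9.35 at 10 passages and 51.7 and 256.6 at 48 passages (log2 difference 3.51, limma adjusted p = 0.0225), and Dock5, an activator of Rac, was at 0.101 and 0.0539 in 10p-HFSCs against 4.06 and 4.99 in 48p-HFSCs (2.35, limma adjusted p = 0.00251). Dock5 passed the filter on low values through the 48p libraries alone, so that its call is not independent of the filter. Igfbp3, a secreted binding protein of insulin-like growth factors, was at 411.4 and 417.8 in the 10p pair and 26.8 and 18.5 in the 48p pair (-4.16, limma adjusted p = 0.0011). Rbms3, an RNA-binding protein, was at 3.5 and 3.9 at 10 passages and 1.28 and 0.569 at 48 passages (-1.31, limma adjusted p = 0.0286), a call lost under TPM (-1.73, limma adjusted p = 0.0684) and under the correction for length and GC content (-0.96, under the limit on size). Without 10p-HFSCs replicate 1 or 2 the limma adjusted p of these 4 calls lay between 0.0546 and 0.261.

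Other SRF-MRTF target genes numbered 24, of which 18 were tested, 1 was called higher and 2 lower, again near the shares of all genes, with a median of 0.046 (-0.044 without 48p-HFSCs replicate 2). Fhl1, a LIM protein of muscle and of focal contacts, was at 29.6 and 35.5 in 10p-HFSCs against 0.171 and 0.708 in 48p-HFSCs (log2 difference -4.56, limma adjusted p = 0.000969) and kept its call without 10p-HFSCs replicate 1 or 2 (limma adjusted p = 0.0448 and 0.044). Egr3, an immediate early gene, was at 3.07 and 3.42 in the 10p pair and 0.426 and 0.0582 in the 48p pair (-1.79, limma adjusted p = 0.00806). Both Fhl1 and Egr3 passed the filter on low values through the 10p libraries alone, so that their calls are not independent of the filter. Tuft1, which encodes tuftelin, was at 17.4 and 15.2 at 10 passages and 32.8 and 52.4 at 48 passages (1.30, limma adjusted p = 0.035), a call lost under TPM (0.74, limma adjusted p = 0.337) and without 48p-HFSCs replicate 2 (0.97, limma adjusted p = 0.0645). The calls of Egr3 and Tuft1 were lost without 10p-HFSCs replicate 1 or 2 (limma adjusted p from 0.0858 to 0.318).

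**Figure D4:**
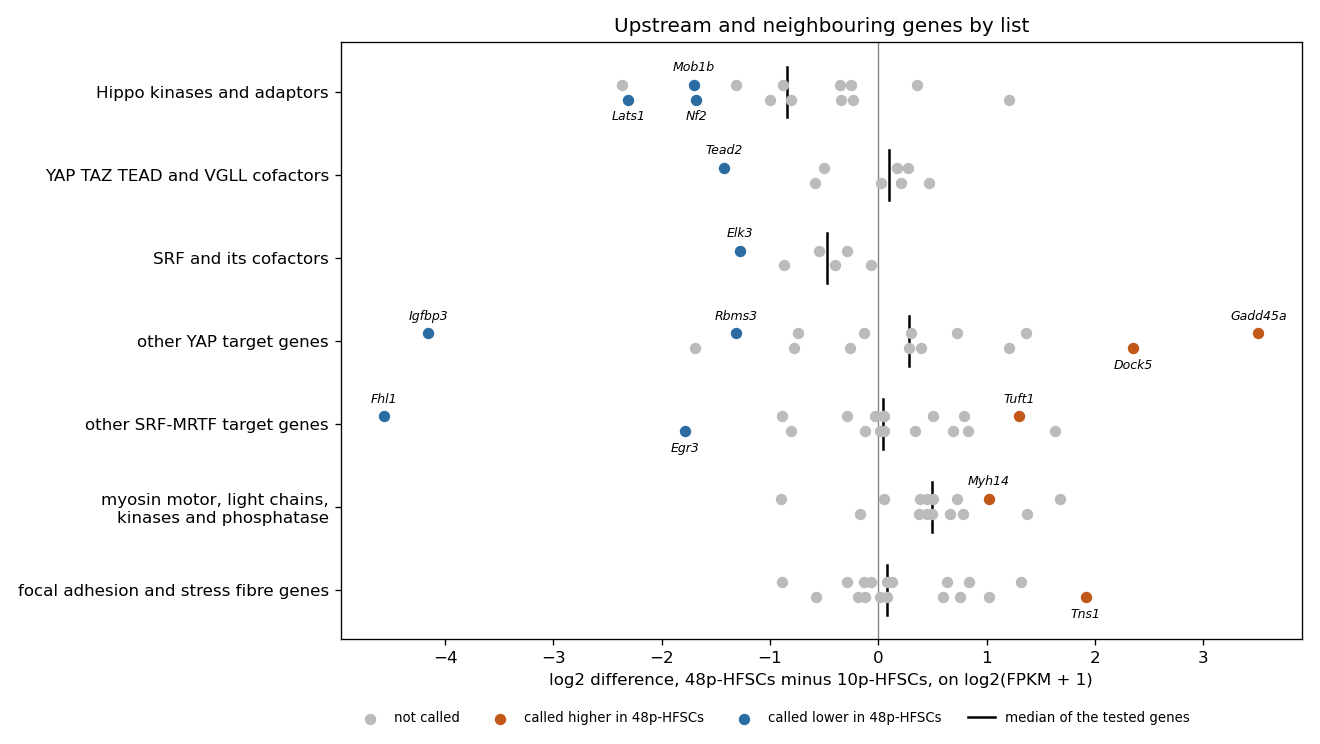
Log2 difference, 48p-HFSCs minus 10p-HFSCs, of each tested gene (points) of 7 lists of upstream and neighbouring genes, with the median of each list as a black line and called genes in blue (lower) or orange (higher) with their names. The Hippo kinases and adaptors lie mostly left of 0 with a median of -0.85, whereas the lists of YAP and SRF-MRTF targets have calls on both sides.

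The myosin motor and its regulators, the partners of tropomyosin in contraction, numbered 19, of which 15 were tested. Against 10.8% and 9.15% of all genes, 1 of these was called higher and 0 lower. Their median was 0.50, and both 48p values were above both 10p values for 11 of the 15, against 31.7% of all genes. Without 48p-HFSCs replicate 2 the median was 0.28, and under TPM it was -0.08 against -0.565 for all genes. Under the correction for length and GC content it was 0.64 against -0.014 for all genes, with 3 called higher. Of all 10954 genes fitted with that correction, 1296 were called higher and 1090 lower. Myh14, a non-muscle myosin heavy chain of epithelia, was called, from 13.8 and 14.1 in 10p-HFSCs to 27.8 and 31.1 in 48p-HFSCs (log2 difference 1.02, limma adjusted p = 0.0348), a call lost under TPM (0.47, limma adjusted p = 0.592) and without 48p-HFSCs replicate 2 (0.95, limma adjusted p = 0.0606). Of 20 genes of focal adhesions and stress fibres, the structures where contractile force meets the matrix, 18 were tested and had a median of 0.079. Against 10.8% and 9.15% of all genes, 1 of these was called higher and 0 lower. Under the correction for length and GC content the median was 0.36 against -0.014 for all genes. With it, 2 of the list were called higher and 0 lower, against the same 1296 and 1090 of all 10954 genes. Tns1, which ties integrins to actin, was at 0.988 and 0.746 in 10p-HFSCs against 8.38 and 4.27 in 48p-HFSCs (log2 difference 1.92, limma adjusted p = 0.0165), a call lost under TPM (1.66, limma adjusted p = 0.131). Tns1 passed the filter on low values through the 48p libraries alone. The calls of Myh14 and Tns1 were lost without 10p-HFSCs replicate 1 or 2 (limma adjusted p from 0.208 to 0.371).

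Some markers of other cells also differed between the passages, where 10.8% of all genes tested were called higher and 9.15% lower. Of 7 genes of smooth muscle, 5 (Myh11, Myocd, Cnn1, Actg2 and Lmod1) were under an FPKM of 1 in every library. Des was called higher, from 0.649 and 0.930 in 10p-HFSCs to 10.8 and 10.7 in 48p-HFSCs (log2 difference 2.72, limma adjusted p = 0.0021). Des passed the filter on low values through the 48p libraries alone. Smtn was at 22.7 and 18.2 in the 10p pair and 35.6 and 34.4 in the 48p pair, and was not called. The summed level was 23.7 and 19.6 at 10 passages and 46.7 and 45.9 at 48 passages, nearly all from Smtn and, in 48p-HFSCs, Des. Of 10 markers of fibroblasts and mesenchyme, 7 were under 1 in every library (Dcn, Lum and Thy1 were listed at 0), but the summed level was 353.0 and 387.7 in 10p-HFSCs against 5.88 and 4.17 in 48p-HFSCs, through Vim and Col1a2, which moved in the direction of Ctgf, whereas Twist2 of the same list was at 0.0441 and 0.0615 in 10p-HFSCs against 3.35 and 0.849 in 48p-HFSCs. Vim and Col1a2 were the 2 tested genes of this list, and both were called lower (log2 differences -6.37 and -6.01, limma adjusted p = 0.000559 for each). Col1a2 passed the filter through the 10p libraries alone. Of 5 markers listed for myoepithelial and sweat gland cells, Krt18 was called higher and Aqp5 lower. The summed level was 441.8 and 412.5 in the 10p pair and 1292 and 2642 in the 48p pair, in the direction of Cyr61. This sum rose through the keratins Krt8 (956.1 and 1519 in 48p-HFSCs) and Krt18 (328.8 and 1120), the latter a gene that passed the filter through the 48p libraries alone. Aqp5 instead fell from 63.1 and 87.9 to 4.24 and 0.466, and Oxtr was at 0.0336 or less, so that the list did not move as a whole. Of 9 markers of HFSCs and basal keratinocytes, Itga6 and Itgb4 were called higher and Sox9 lower. Markers of endothelium summed to 2.54 or less and those of melanocytes to 2.73 or less, while those of leukocytes summed to between 0.641 and 104.2, mostly from Cd74 in 48p-HFSCs, with Ptprc at 0.0711 or less. Cd74 and Lyz2, the 2 leukocyte markers tested, were called higher (log2 differences 5.98 and 1.325, limma adjusted p = 0.000854 and 0.0225). Both passed the filter through the 48p libraries alone. The part of any of these in the differences of the 10 genes was not tested. In bulk RNA, fewer cells of a type and less RNA of a gene per cell cannot be told apart.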

How the data were processed

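Polyadenylated RNA of 2 libraries of 10p-HFSCs and 2 of 48p-HFSCs was made into stranded libraries and sequenced from one end. The authors mapped the reads to mm10 and deposited 1 FPKM value per gene symbol and library; the submitters' processing notes name TopHat2 2.1.1, Bowtie2 2.2.8, SAMtools 0.1.18 and Cuffdiff 2.2.1, and the annotation and strand setting are not given in the sources used here. FPKM by its definition corrects for length and mapped fragments but not for a change in RNA composition or a bias by transcript length. The paper does not say how libraries were scaled to each other in the authors' quantification. Median-of-ratios scaling moved the median log2 difference of all genes only from -0.034 to -0.016. Groups and replicate numbers came from the sample labels.

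Values were analysed as log2(FPKM + 1) for genes that reached an FPKM of 1 in 2 or more libraries, with limma 3.58.1 in R 4.3.3 (variance trend, Benjamini-Hochberg adjustment over 11018 genes), and the script was tested on simulated data. A gene could pass this filter through a single group, and the call of such a gene is not independent of the filter. A count test was not run, since FPKM values are not counts. The genes and lists were chosen with earlier results of these data known. Named beside the 10 genes were their family members, the called genes of each list and the YAP, TAZ, TEAD, SRF and MRTF genes; Lats2, and marker genes and proteasome subunits named singly, were chosen after their values were seen. One gene of the focal adhesion list is not reported here. Positions came from GENCODE M21 on GRCm38, of which mm10 is another name, and promoters from RefSeq on GRCm38.p6.

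Alternatives were a pseudocount of 0.1, no filter, a mean FPKM of at least 1, TPM, median-of-ratios and quantile scaling, a constant variance prior, the replicate number as a block, an adjusted p under 0.1, no limit on size, and each library left out in turn. Leaving out genes at 0 in all libraries in place of the filter, and a correction for transcript length and GC content by splines with 4 degrees of freedom, without and with the replicate block, were chosen after the data had been seen.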

Additional observations from a re-analysis of the deposited data

How the results depend on the processing

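Of the 7 tested genes, 6 kept their direction under each alternative run, Ankrd1 being the exception. Cnn2 was called under neither alternative to the filter that keeps genes of all levels (limma adjusted p = 0.188 and 0.0584), and Tpm1 under none of the 3 other filters (0.107, 0.0645 and 0.0521). Cyr61 was not called without the filter (0.159). Without the filter on low values, 116 genes were called higher and 114 lower, and 0 of the 10 genes higher, and Ctgf was still called lower. With no filter but genes at 0 in all libraries left out, 637 genes were called lower and 1 of the 10 higher (Cyr61), and 8 of the 15 called list genes outside the 10 lost their call (Elk3, Gadd45a, Mob1b, Nf2, Rbms3, Tead2, Tns1 and Tuft1). Of these 15, those that had passed the filter through a single group were Acta1, Dock5, Egr3, Fhl1 and Tns1. All of them but Tns1 kept their calls there. Rescaling to TPM moved the median of all genes to -0.565 and left 616 genes called higher and 900 lower, and Ankrd1 turned to -0.06, which is 0.51 above that median. Leaving out each library in turn gave 35 to 1936 genes called higher and 140 to 1875 lower, and of the 10 genes 0 to 4 higher and 0 to 1 lower. The lowest counts came without a 10p library, where the other one was assumed to vary like the 48p pair, and of those 15 list genes Fhl1 alone kept its call there. The difference of Ankrd1 lay between -0.036 and 0.97 with a library left out.

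The groups share replicate numbers, but no label says that a number marks a shared batch, and with 2 pairs the numbers cannot be shown to pair the libraries. Across 11018 genes, which are not independent, libraries with the same number deviated from their groups with a correlation of 0.408. In both groups short transcripts were by median higher in replicate 2 than in replicate 1. With the number as a replicate block, the calls numbered 1613 higher and 1497 lower, with 4 of the 10 genes higher and 1 lower, the addition being Tpm2 (limma adjusted p = 0.00966). Tagln2, of the transgelin family, was also called with the block (limma adjusted p = 0.0265), and with the block and the correction for length and GC content (limma adjusted p = 0.0373). By the estimate of relative depth, low values were the least precise in 48p-HFSCs replicate 2, the shallowest library, which bears on Acta2 and Tagln.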
